A study of Mus musculus with 8 samples.

Results

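The 9 genes described here encode the histone lysine demethylases of the KDM1, KDM3 and KDM4 families. They were chosen by name, by matching the Entrez identifiers of the count table to mouse symbols, and are *Kdm1a* and *Kdm1b* (KDM1), *Kdm3a*, *Kdm3b* and *Jmjd1c* (KDM3), and *Kdm4a*, *Kdm4b*, *Kdm4c* and *Kdm4d* (KDM4). All 9 were found among the 21058 genes listed and all 9 passed the minimum of 10 counts summed over the libraries, as did 17643 genes in all. All 9 lie on autosomes. RNA-seq was run on pachytene spermatocytes from adult males, enriched by Sta-Put, which sorts dissociated testis cells by their sedimentation under gravity, with 4 libraries labelled Arid1aWT (*Arid1a* WT) and 4 labelled Arid1acKO (*Arid1a* cKO), to ask how ARID1A, a putative DNA-binding subunit of the BAF chromatin remodeler, shapes transcription in meiosis.

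Males of the *Arid1a* cKO group had the genotype *Arid1a* fl/fl; *Stra8-Cre* Tg/0, with Cre expressed from spermatogonia on. The *Arid1a* WT males were *Arid1a* fl/fl or *Arid1a* fl/+ without Cre, so that controls also carried floxed alleles, and the floxed line was kept on a CD1 background. Testes of many males were pooled for a purification. The study describes inefficient excision in these males, with most pachytene cells lacking detectable ARID1A and some keeping it. Cells without ARID1A arrested at mid-pachynema in the study, so the groups may differ in stage as well as genotype. RNA of the excised allele was still found in pachytene cells of these males, so the level of *Arid1a* RNA does not measure excision. The labels do not say whether the 4 libraries of a genotype came from separate purifications, and p-values then measure only the spread between these samples.

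Methyl groups on histone H3 mark chromatin states. Methylation of lysine 4 goes with active promoters and enhancers, and methylation of lysine 9 with silent chromatin, including the sex body of pachytene spermatocytes. KDM1 enzymes are flavin-dependent amine oxidases that take mono- and dimethyl groups off lysine 4. KDM3 and KDM4 enzymes share a JmjC domain that uses iron and 2-oxoglutarate, with KDM3 acting on mono- and dimethylated lysine 9 and KDM4 on trimethylated lysine 9. In the male germ line KDM3A is known for activating the genes of the protamines and transition proteins that compact sperm chromatin, and KDM4D for its high abundance in testis.

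Libraries held between 15850961 and 22044507 estimated counts. *Arid1a* itself was lower in *Arid1a* cKO, at 79.7 ± 2.89 CPM against 113 ± 13.8 CPM (counts scaled to library size, SD, n = 4 each), with a log2 fold change (cKO over WT) of -0.51 and an SE of 0.07 (adjusted p = 2.31e-05, edgeR's quasi-likelihood test). SE is the standard error of the log2 fold change throughout. Of 11 pachytene markers 5 were called higher and 5 lower, and their summed level was 9342 to 10923 CPM in *Arid1a* WT and 8558 to 9287 CPM in *Arid1a* cKO. *Ldhc* (means of 3726 CPM in *Arid1a* WT and 3272 CPM in *Arid1a* cKO) and *Hspa2* (2049 and 1702 CPM) held the largest parts of this sum. Single markers moved further in either direction, such as *Piwil1* (1597 and 109 CPM) and *Pgk2* (277 and 786 CPM). Markers of other testis cells moved with genotype. All 16 spermatid markers were called higher (summed level 2122 to 2341 CPM in *Arid1a* WT and 9299 to 9550 CPM in *Arid1a* cKO), all 8 Sertoli markers were called lower (456 to 519 against 137 to 140 CPM) and 5 of 6 Leydig markers were called lower (56.6 to 60.2 against 8.11 to 8.61 CPM). Of 11 spermatogonial markers 9 were called higher and 1 lower (203 to 208 against 195 to 207 CPM), and of 8 leptotene and zygotene markers 5 higher and 3 lower (524 to 601 against 356 to 373 CPM). The spermatogonial marker called lower was *Id4*, at a mean of 90.3 CPM in *Arid1a* WT and 14.4 CPM in *Arid1a* cKO, so the similar sums hide these opposite moves. Of 9 macrophage and blood markers 7 were called higher and 1 lower (5.53 to 6.87 against 14.4 to 16.9 CPM), and of 4 peritubular and endothelial markers 2 higher and 1 lower (12.2 to 16.3 against 17.2 to 19.2 CPM). None of these markers was at 0 in every library. Their part in the results given here was not tested, and in bulk RNA fewer cells of a type and less RNA per cell cannot be told apart.

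Promoter sequences were matched for 7 of the 9 genes in 11 windows of RefSeq (GRCm38.p6), each running from 250 bases before to 50 bases after a transcript start. *Kdm3b* and *Kdm4b* were not matched. The windows of the most abundant members are printed because the order of these 3 genes differed between genotypes, with capitals for each CpG dinucleotide, read 5′ to 3′ along the gene.
Kdm3a (chr6:71632637-71632936, minus strand): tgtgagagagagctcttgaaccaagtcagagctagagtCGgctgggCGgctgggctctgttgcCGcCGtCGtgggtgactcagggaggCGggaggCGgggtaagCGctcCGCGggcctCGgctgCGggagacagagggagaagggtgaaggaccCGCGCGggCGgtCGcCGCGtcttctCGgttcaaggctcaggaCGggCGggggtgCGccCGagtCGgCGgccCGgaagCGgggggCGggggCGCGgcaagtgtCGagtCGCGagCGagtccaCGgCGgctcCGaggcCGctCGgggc
Kdm4d (chr9:14500433-14500732, minus strand): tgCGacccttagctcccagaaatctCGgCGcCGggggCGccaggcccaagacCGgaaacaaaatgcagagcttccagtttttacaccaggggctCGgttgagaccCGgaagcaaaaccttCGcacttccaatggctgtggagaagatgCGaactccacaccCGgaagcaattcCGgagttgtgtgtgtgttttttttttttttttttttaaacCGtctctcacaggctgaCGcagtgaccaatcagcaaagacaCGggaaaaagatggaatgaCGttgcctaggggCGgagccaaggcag
Kdm1a (chr4:136602674-136602973, minus strand): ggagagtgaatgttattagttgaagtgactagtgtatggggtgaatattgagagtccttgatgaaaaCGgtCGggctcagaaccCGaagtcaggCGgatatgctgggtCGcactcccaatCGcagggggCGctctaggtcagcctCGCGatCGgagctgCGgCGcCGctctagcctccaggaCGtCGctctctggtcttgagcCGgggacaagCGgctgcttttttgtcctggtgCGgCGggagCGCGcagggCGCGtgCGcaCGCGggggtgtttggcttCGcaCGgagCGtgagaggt
The *Kdm3a* window held 40 CpG, more than 96.1% of all 32851 windows, the *Kdm1a* window held 29 (87.1%) and the *Kdm4d* window 17 (68.6%), where the median window held 7. The GC content was 73.0% for *Kdm3a*, 61.3% for *Kdm1a* and 52.7% for *Kdm4d*. The printed window of *Kdm3a* was that with the most CpG. *Kdm3a* had 2 further windows, both with fewer CpG than the *Kdm1a* window. They held 24 CpG (80.0%) at chr6:71632868-71633167 and 0 CpG at a start inside the gene (chr6:71609090-71609389). Over all 11 windows the number ran from 0 to 47, the highest at a start of *Jmjd1c* (chr10:67126838-67127137). The cAMP response element TGACGTCA, its own reverse complement, was found in 0 of the 11 windows and in 1.79% of all windows. The letters CAGTTG, a core bound by A-MYB, or its reverse complement CAACTG, were found in 2 of the 11 windows and in 13.7% of all windows. One of these was a *Jmjd1c* start (chr10:67185500-67185799), with the match 24 bases after the start, and the other a *Kdm4c* start (chr4:74242247-74242546), 44 bases before it.

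In *Arid1a* WT pachytene spermatocytes 3 of the 9 genes made up most of the transcripts. Levels between genes are given in TPM, which is scaled for transcript length. *Kdm3a* was at 186 ± 9.93 TPM, *Kdm4d* at 123 ± 7.82 TPM and *Kdm1a* at 96.6 ± 3.65 TPM (SD, n = 4 each), and each of these lay apart from its neighbour in every library. *Jmjd1c* followed at 30.7 ± 3.04 TPM (SD, n = 4), also apart. The other 5 members were between 2.76 TPM (*Kdm1b*) and 6.27 TPM (*Kdm3b*). Among them the neighbours *Kdm3b* and *Kdm4a*, *Kdm4a* and *Kdm4b*, and *Kdm4c* and *Kdm1b* overlapped between libraries.
In *Arid1a* cKO the order at the top was another. *Kdm1a* came first at 111 ± 0.428 TPM, followed by *Kdm4d* at 80.0 ± 2.40 TPM and *Kdm3a* at 75.7 ± 2.64 TPM (SD, n = 4 each), and the latter pair overlapped. *Jmjd1c* stayed in the next place at 16.7 ± 1.37 TPM (SD, n = 4). *Kdm1b*, lowest in *Arid1a* WT at 2.76 ± 0.0769 TPM, came above *Kdm4a* and *Kdm4c* at 4.37 ± 0.427 TPM (SD, n = 4 each). The genes listed in the table took 78.1% to 81.1% of all TPM in *Arid1a* WT libraries and 88.1% to 88.6% in *Arid1a* cKO libraries, the rest being transcripts with no listed gene, so a TPM difference between genotypes also carries this difference, and the order within a library does not.

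**Figure D1:**
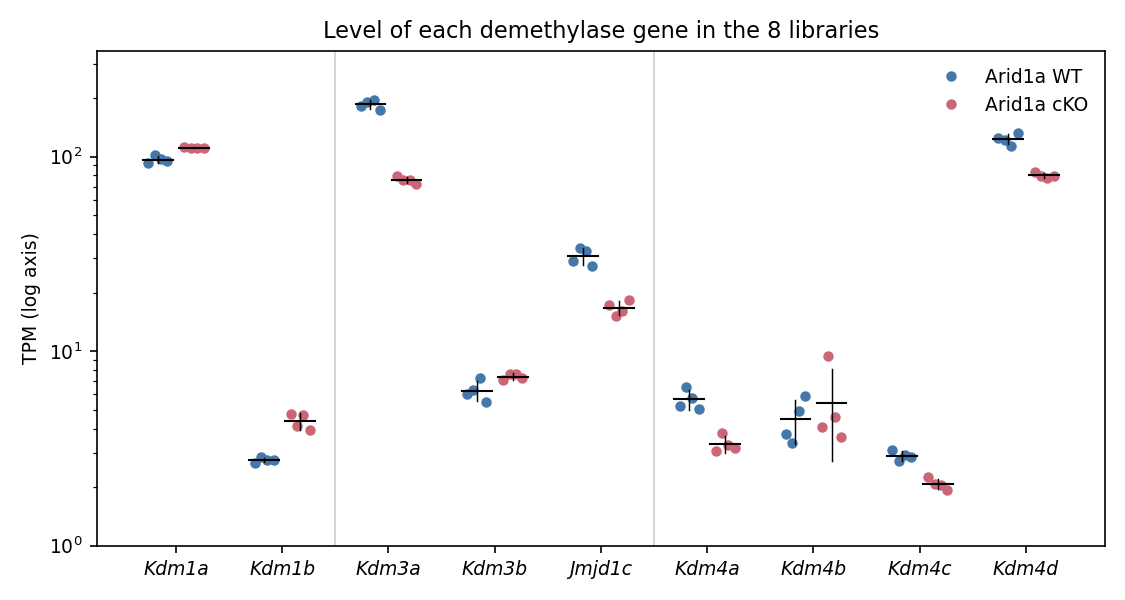
TPM of each of the 9 genes (log axis) in the 4 *Arid1a* WT and 4 *Arid1a* cKO libraries, with a point for each library, a bar for the mean and a line for the SD. *Kdm3a* goes from the highest gene, at 174 to 196 TPM, to 72.6 to 79.0 TPM, below *Kdm1a*.

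All 9 genes were called different between genotypes by edgeR's quasi-likelihood test at an adjusted p of 0.05 or less over all genes tested, 4 higher and 5 lower in *Arid1a* cKO. The share of all tested genes called was 74.0%, with 36.5% higher and 37.5% lower. Among autosomal genes it was 73.7% (34.9% higher, 38.7% lower), and among genes at least as abundant as the weakest member 87.4% (39.6% higher, 47.8% lower), so that calls in all 9 genes are near the background. With limma on log2(TPM + 1) or log2(TPM + 0.1) 2 members were called higher and 5 lower. On TPM rescaled to an equal sum over the listed genes these were 1 and 5. In 8 of the 9 genes the 4 libraries of one genotype all lay above those of the other, 3 higher and 5 lower, where 68.9% of all tested genes did so (34.0% higher, 34.9% lower). The median absolute log2 fold change was 0.48 over the 9 genes and 0.76 over all tested genes, weakly counted ones included. That of *Kdm3a* was larger than in 65.4% of tested genes and that of *Kdm4b*, the smallest of the 9, than in 16.4%, and only *Kdm3a* reached 1 in either direction, where 16.0% of all tested genes were called lower and 20.6% higher by at least as much. The median log2 fold change was -0.27 over the members and -0.02 over all tested genes. It was -0.06 over autosomal genes and -0.11 over genes at least as abundant as the weakest member.

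**Figure D2:**
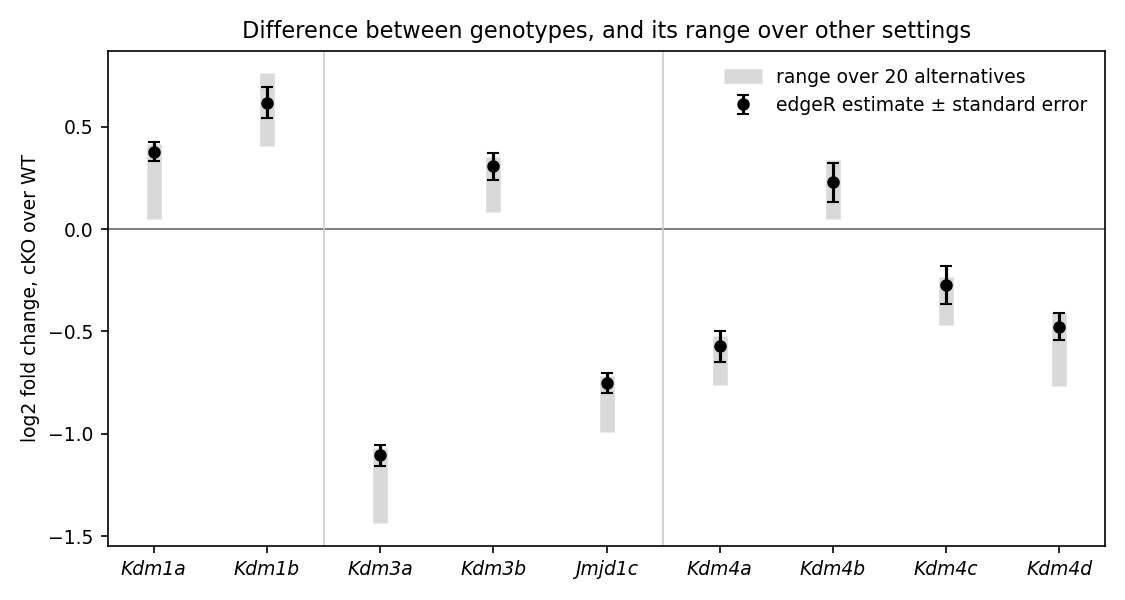
Log2 fold change of each gene in *Arid1a* cKO over *Arid1a* WT, with the edgeR estimate and its standard error as a point and error bar, and its range over the 20 other settings as a grey bar. *Kdm3a* lies lowest at -1.11, and the grey bars of *Kdm1a*, *Kdm3b* and *Kdm4b* come close to 0.

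Both KDM1 genes were higher in *Arid1a* cKO. *Kdm1a* (chr4:136550533-136602787), which encodes the demethylase subunit of the CoREST corepressor and is also called LSD1, was at 185, 185, 175 and 193 CPM in *Arid1a* WT replicates 1 to 4 and at 245, 238, 237 and 239 CPM in *Arid1a* cKO. The groups did not overlap, and *Kdm1a* rose by 0.38 log2 units (SE 0.05, edgeR adjusted p = 2.79e-06). The size of this rise depended on the scale. It was 0.20 with limma on log2(TPM + 1) and also on log2(TPM + 0.1), and 0.05 (adjusted p = 0.25, against 1.46e-15 to 0.25 over the 20 settings) once TPM were rescaled so that the listed genes summed to the same total in every library.
*Kdm1b* (chr13:47043373-47085279), the relative known for demethylating lysine 4 at imprinted genes in oocytes, was at 7.63 to 8.07 CPM in *Arid1a* WT and at 13.0, 11.4, 12.5 and 11.8 CPM in *Arid1a* cKO. The genotypes did not overlap, and this was the largest rise among the 9 genes (log2 fold change 0.62, SE 0.08, edgeR adjusted p = 4.04e-06). *Kdm1b* overlaps *Dek* on the opposite strand, has 8.56% of its 31-base words in common with other genes, mainly *Dek*, and *Dek* rose by 1.76 log2 units (edgeR adjusted p = 3.41e-13). How far reads of *Dek* enter the count of *Kdm1b* was not tested.
*Kdm1a* stayed far above *Kdm1b* per length. The TPM ratio of *Kdm1a* to *Kdm1b* was 35.0 ± 0.481 in *Arid1a* WT libraries against 25.6 ± 2.48 in *Arid1a* cKO libraries (SD, n = 4 each), and no library of one genotype reached the range of the other.

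The KDM3 family held the largest fall. *Kdm3a* (chr6:71588970-71632990), the lysine 9 demethylase of the spermatid program, was at 520, 488, 472 and 513 CPM in *Arid1a* WT replicates 1 to 4 and at 244, 231, 226 and 226 CPM in *Arid1a* cKO. All 4 *Arid1a* cKO libraries lay far under the lowest *Arid1a* WT library, at 46.5% of the *Arid1a* WT level (log2 fold change -1.11, SE 0.05, edgeR adjusted p = 6.18e-11). Leaving out any single library gave -1.13 to -1.08, and the other settings gave -1.44 to -1.07. Of all tested genes, 14.6% had a lower log2 fold change.
*Jmjd1c* (chr10:67096351-67256326), a KDM3 relative that is known in spermatogonial maintenance, was at 155, 163, 154 and 148 CPM in *Arid1a* WT and at 97.6, 88.5, 91.0 and 91.1 CPM in *Arid1a* cKO. The groups were far apart, and *Jmjd1c* fell to 59.4% of the *Arid1a* WT level (log2 fold change -0.75, SE 0.05, edgeR adjusted p = 3.44e-09). *Kdm3b* (chr18:34777008-34839370), a broadly expressed lysine 9 demethylase, went the other way, from 22.2 ± 1.79 to 27.4 ± 1.16 CPM (SD, n = 4 each), with no overlap in CPM (log2 fold change 0.31, SE 0.07, edgeR adjusted p = 0.000921). The groups did overlap in TPM, and with limma *Kdm3b* was not called on log2(TPM + 1) (0.21, adjusted p = 0.0647) or log2(TPM + 0.1) (0.24, adjusted p = 0.0569), against 8.29e-05 to 0.475 over the 20 settings. Of the 31-base words of *Kdm3b* 25.7% also occur in other genes, mainly *Gm26538* on the opposite strand, which the count table does not list.
The balance within the family changed with these differences. Per length, *Kdm3a* was 27.1 to 31.9 times *Kdm3b* in *Arid1a* WT libraries and 9.85 to 11.1 times in *Arid1a* cKO libraries. The summed TPM of the 3 KDM3 genes went from 223 ± 13.5 to 99.8 ± 2.41 (SD, n = 4 each), of which *Kdm3a* made up 83.4% and 75.8%.

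Of the KDM4 genes 3 were lower and 1 was near the threshold. *Kdm4d* (chr9:14462548-14500522), the testis-enriched member, was at 226, 208, 190 and 237 CPM in *Arid1a* WT and at 164, 153, 150 and 153 CPM in *Arid1a* cKO. The lowest *Arid1a* WT library stood above the highest *Arid1a* cKO library, and *Kdm4d* was at 71.9% of the *Arid1a* WT level (log2 fold change -0.48, SE 0.07, edgeR adjusted p = 1.23e-05). On TPM rescaled to an equal sum over the listed genes it was lower still, at -0.77 (limma adjusted p = 8.71e-08). Of the 31-base words of *Kdm4d* 14.9% also occur in other genes, mainly *Kdm4dl*, which the count table does not list.
*Kdm4a* (chr4:118136957-118180090), which also acts on trimethylated lysine 36, was at 15.5, 17.7, 16.1 and 14.8 CPM in *Arid1a* WT and at 10.4, 11.3, 10.8 and 10.7 CPM in *Arid1a* cKO. The groups did not overlap (log2 fold change -0.57, SE 0.08, edgeR adjusted p = 7.87e-06). *Kdm4c* (chr4:74242497-74405864), a close relative of *Kdm4a*, was the most weakly counted member, at 7.27 to 8.26 CPM in *Arid1a* WT and 5.98 to 7.05 CPM in *Arid1a* cKO, with 93 to 180 counts a library. *Kdm4c* was called lower without overlap (log2 fold change -0.27, SE 0.09, edgeR adjusted p = 0.0151), but not with DESeq2 (-0.25, adjusted p = 0.0855, against 0.00113 to 0.0855 over the 20 settings). On TPM *Kdm4c* was at -0.34 on log2(TPM + 1), -0.46 on log2(TPM + 0.1) and -0.47 on rescaled TPM, all of them called with limma.
*Kdm4b* (chr17:56325970-56403774), the remaining KDM4 gene, was at 10.2, 10.1, 12.0 and 8.64 CPM in *Arid1a* WT and at 12.1, 11.9, 12.5 and 11.3 CPM in *Arid1a* cKO. The groups overlapped through *Arid1a* WT replicate 3. The rise of 0.23 log2 units (SE 0.09, edgeR adjusted p = 0.0417) was called, but not in 11 of the 20 other settings. Among these were 6 of the 8 that left out a library, namely *Arid1a* WT replicate 1, 2 or 4 and *Arid1a* cKO replicate 1, 2 or 3, with adjusted p of 0.0707 to 0.107. Without *Arid1a* WT replicate 3 the adjusted p was 0.00367, and without *Arid1a* cKO replicate 4 it was 0.047.
The KDM4 genes together summed to 136 ± 7.85 TPM in *Arid1a* WT libraries against 90.8 ± 3.47 TPM in *Arid1a* cKO libraries (SD, n = 4 each), with *Kdm4d* at 90.4% and 88.1% of the sum. Per length *Kdm4d* was 18.6 to 26.3 times *Kdm4a* in *Arid1a* WT libraries and 20.8 to 27.4 times in *Arid1a* cKO libraries. These ranges overlapped, unlike those of *Kdm3a* over *Kdm3b*.

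Since a change of scale acts on all genes of a library alike, the share of each gene in the summed TPM of the 9 was compared within libraries, as a description with no test. A share moves with every gene of the sum, not with its own gene alone. The sum was 459 ± 10.3 TPM in *Arid1a* WT libraries against 306 ± 5.29 TPM in *Arid1a* cKO libraries (SD, n = 4 each). *Kdm3a* took 38.6% to 42.4% of it in *Arid1a* WT libraries and 24.1% to 25.3% in *Arid1a* cKO libraries. *Kdm1a* took 20.6% to 21.5% and then 35.7% to 36.9%, where its mean was 96.6 and then 111 TPM. Both shares lay in ranges that did not overlap between genotypes. The same held for the small shares of *Kdm1b* (0.595% to 0.612% and 1.30% to 1.55%) and *Kdm3b* (1.21% to 1.56% and 2.27% to 2.52%). *Kdm4d* kept a similar share, at 24.5% to 29.4% and 25.8% to 26.7%, although its mean was 123 and then 80.0 TPM. *Jmjd1c* took 6.05% to 7.17% and 4.95% to 6.10%, with an overlap. In each library the TPM of *Kdm3a* divided by that of *Kdm1a* gives the same picture, with 1.96, 1.89, 2.02 and 1.83 in *Arid1a* WT replicates 1 to 4 and 0.708, 0.681, 0.684 and 0.655 in *Arid1a* cKO. So *Kdm3a* exceeded *Kdm1a* in all 4 *Arid1a* WT libraries and in no *Arid1a* cKO library. *Kdm4d* over *Kdm1a* gave 1.17 to 1.39 in *Arid1a* WT and 0.704 to 0.748 in *Arid1a* cKO, so *Kdm4d* too exceeded *Kdm1a* in *Arid1a* WT libraries only.

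**Figure D3:**
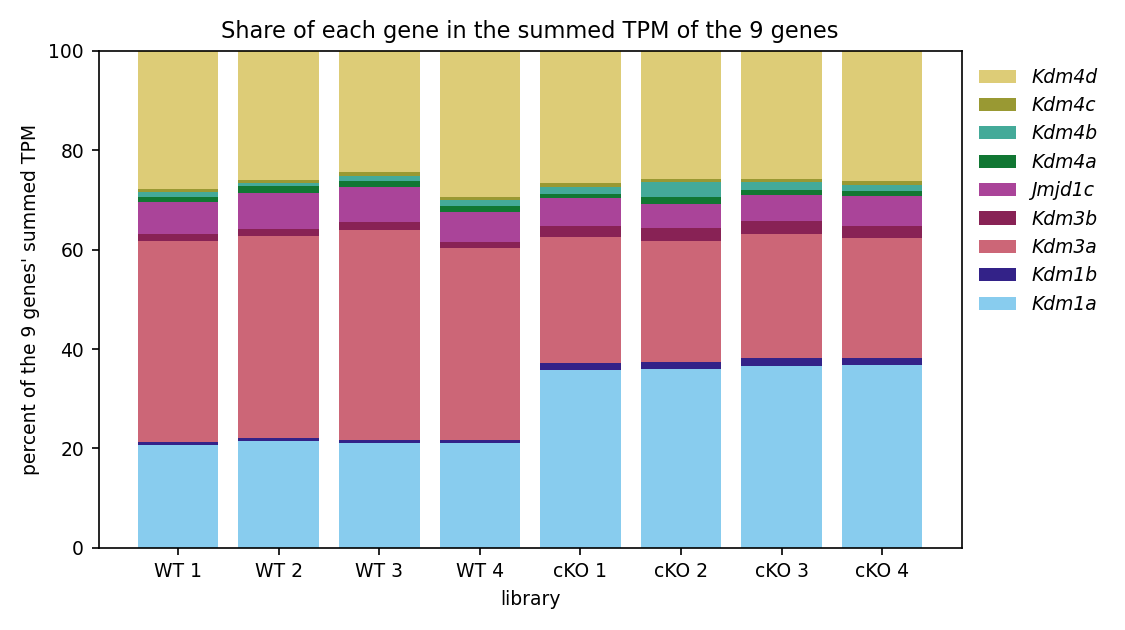
Percent of the summed TPM of the 9 genes taken by each gene, as a stacked bar for each of the 8 libraries. The *Kdm3a* segment narrows from 38.6% or more in *Arid1a* WT to 25.3% or less in *Arid1a* cKO, and the *Kdm1a* segment widens from 21.5% or less to 35.7% or more.

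The count of a gene divided by its TPM is proportional to the mean length of the transcripts that Salmon assigned to it, so it shows whether longer or shorter transcripts made up the count. It was divided by its median over genes in each library, and a relative length of 1 is then that of the median gene. The log2 of this value was compared between genotypes with limma over 13977 genes, of which 50.8% were called, 40.9% longer and 9.99% shorter in *Arid1a* cKO. Among the 9 genes 3 were called longer and 1 shorter, and the 3 called longer were those whose groups did not overlap, where 49.5% of all genes did not. *Kdm4d*, with 2 annotated coding transcripts in GENCODE M21 of 2117 and 2695 bases, went from 1.16 ± 0.00281 (SD, n = 4) to 1.22 ± 0.00401 (SD, n = 4), a shift of 0.08 in log2 (adjusted p = 0.000155, limma). *Kdm1a*, with 5 coding transcripts of 751 to 3028 bases, went from 1.27 ± 0.0323 to 1.36 ± 0.00365 (SD, n = 4 each, adjusted p = 0.00265, limma). The shift of *Kdm1a* was 0.10 in log2. Over all genes the median shift was 0.06, near that of *Kdm4d*. In size, the shift of *Kdm4d* was larger than in 53.1% of these genes and that of *Kdm1a* than in 64.2%.
*Kdm4c* was called longer, from 1.78 ± 0.0883 to 1.95 ± 0.00549 (SD, n = 4 each, adjusted p = 0.0175, limma). *Kdm1b* was called shorter, from 1.91 ± 0.0157 to 1.76 ± 0.0979 (SD, n = 4 each, adjusted p = 0.0381, limma). The *Kdm1b* groups overlapped through *Arid1a* cKO replicate 4 at 1.90, and the call was lost in 7 of the 8 fits that left out a library (adjusted p of 0.0633 to 0.0912), but not without that replicate (0.000531). *Kdm3a* was at 1.78 ± 0.106 and 1.93 ± 0.0252 (SD, n = 4 each) and was not called (adjusted p = 0.0545, limma, against 0.00978 to 0.125 over 10 other settings), and leaving out *Arid1a* WT replicate 4 gave 0.00978. *Kdm4a* was at 1.83 to 1.93 in *Arid1a* WT and at 2.12, 1.88, 2.08 and 2.11 in *Arid1a* cKO, where replicate 2 alone overlapped (adjusted p = 0.0571, limma), and without that replicate the adjusted p was 0.00115. *Jmjd1c*, the longest of the 9, was at 3.26 to 3.52 in *Arid1a* WT and 3.12 to 3.67 in *Arid1a* cKO (adjusted p = 0.504, limma), and at 0.0433 without *Arid1a* cKO replicate 4.
Within genotypes *Kdm4b* varied the most. Its relative length was 1.74, 2.03, 1.69 and 0.946 in *Arid1a* WT and 1.83, 0.795, 1.74 and 1.97 in *Arid1a* cKO. Replicate 4 of *Arid1a* WT and replicate 2 of *Arid1a* cKO thus stood far under the other 6 libraries, and these were the libraries with the highest TPM of *Kdm4b* in their groups, 5.90 and 9.44 TPM, where the others had 3.37 to 4.91 TPM. Their counts, 190 and 208, lay near those of the other libraries (176 to 262). *Kdm4b* has 4 annotated coding transcripts of 927 to 4577 bases.

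**Figure D4:**
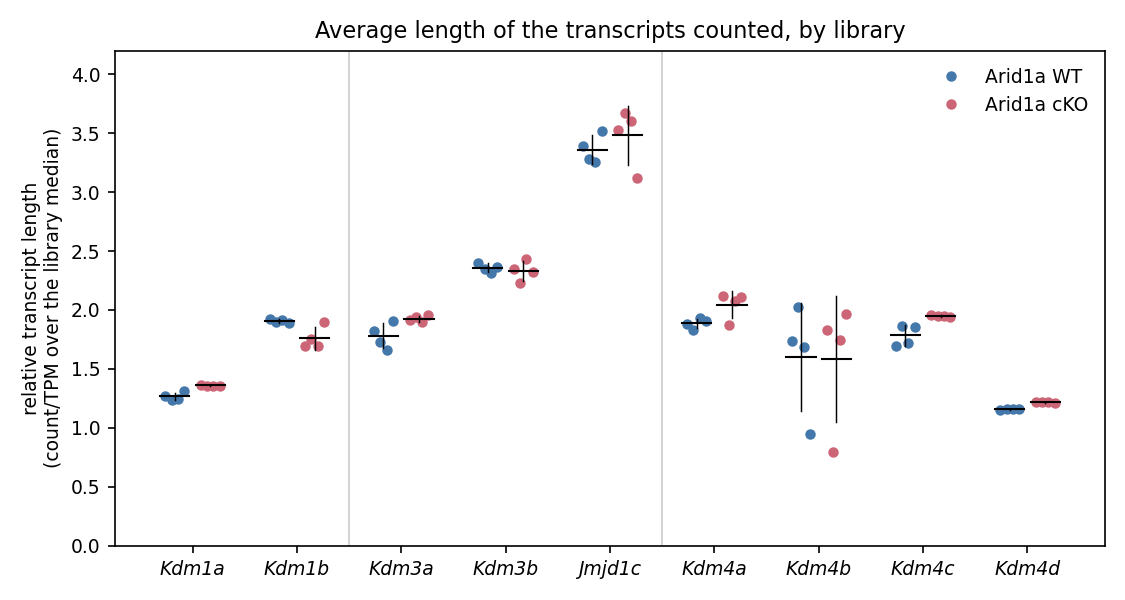
Relative transcript length of each gene (count divided by TPM, over the median of the library), with a point for each library, a bar for the mean and a line for the SD. *Kdm4b* has 1 library in each genotype below 1, at 0.946 and 0.795, with the others at 1.69 or more.

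The 9 genes were set beside lists of related genes. Lysine demethylases and JmjC proteins of other families numbered 17, of which 7 were called higher and 6 lower. The 5 on the X or Y chromosome included 4 called higher, where 67.5% of all tested X- and Y-linked genes were, and the 12 on autosomes included 3 called higher and 6 lower, where 34.9% and 38.7% of all tested autosomal genes were. The largest rises were those of *Uty*, *Kdm5c* and *Kdm6a*, sex-linked genes for JmjC proteins, with log2 fold changes of 1.90, 1.34 and 1.32. The largest falls were those of *Phf2*, a PHD-finger JmjC protein linked to lysine 9 demethylation (-3.07, from 364 ± 15.6 to 43.4 ± 2.07 CPM, SD, n = 4 each, SE 0.06, edgeR adjusted p = 4.01e-14), *Kdm8* (-1.68) and *Kdm2a*, a lysine 36 demethylase (-0.95). The fall of *Phf2* was larger in size than that of any of the 9 genes.

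Partner proteins of KDM1 numbered 14, of which 5 were called higher and 9 lower, with a median log2 fold change of -0.61. On log2(TPM + 1) with limma 3 of the 14 were called higher and 9 lower. Over all tested genes 36.5% were called higher and 37.5% lower, and 39.6% and 47.8% of genes at least as abundant as the weakest member. The falls included *Gfi1*, a transcription factor that recruits KDM1A (-2.43), and *Phf21a*, a subunit found with KDM1A in CoREST complexes (-1.32). *Glyr1*, the cofactor of KDM1B, fell from 160 ± 4.53 to 73.3 ± 1.39 CPM (SD, n = 4 each, log2 fold change -1.12), while *Kdm1b* rose. The rises were led by the X-linked *Zmym3* (0.99), followed by *Rcor2* (0.53) and *Hdac1* (0.17, with overlapping groups), leaving aside genes whose average log2 CPM was under 1. *Glyr1* was named after its values were seen, because it is the partner of a member.

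A list of genes for lysine 9 methyltransferases, which place the mark that KDM3 and KDM4 enzymes remove, held 7 genes, with 6 called higher and 1 lower, where 36.5% and 37.5% of all tested genes were. It includes *Prdm9*, whose product is best known for methylating lysine 4 and lysine 36 at recombination hotspots, and without it 5 of 6 were called higher. On log2(TPM + 1) with limma 4 of the 7 were called higher. *Suv39h2*, *Prdm9* and the X-linked *Suv39h1* had log2 fold changes of 2.16, 1.73 and 1.59, and *Setdb1* fell by 0.81 on the log2 scale, from 124 ± 3.51 to 70.4 ± 4.49 CPM (SD, n = 4 each). *Prdm9* is also on the list of leptotene and zygotene markers.

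Genes of the spermatid program linked to KDM3A numbered 7 and were all called higher in the libraries in which *Kdm3a* was lower, as were 36.5% of all tested genes. *Tnp1* and *Prm1*, a transition protein and a protamine known as targets of KDM3A, had log2 fold changes of 2.23 and 2.16, and *Fhl5*, a coactivator of CREM in testis, of 2.18. Their summed level was 1577 to 1766 CPM in *Arid1a* WT and 6989 to 7304 CPM in *Arid1a* cKO. Of the 7 genes 5 are also on the list of 16 spermatid markers, all of which were called higher, so that this list and the spermatid markers are not separate measurements.

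**Figure D5:**
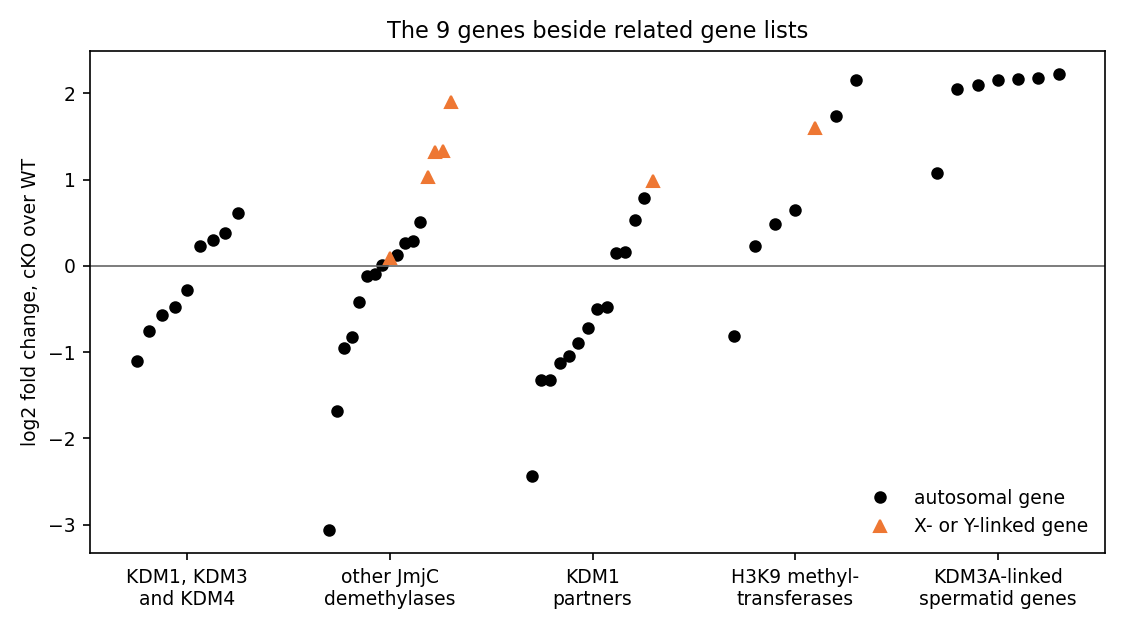
Log2 fold change in *Arid1a* cKO over *Arid1a* WT of the 9 genes and of the genes of 4 related lists, a point for each gene in order of size within its list, with triangles for X- and Y-linked genes. The 9 genes lie between -1.11 and 0.62, inside the spread of the listed JmjC proteins of other families (-3.07 to 1.90).

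For the members with the largest fall and the largest rise, the genes closest in level and in pattern were found by the root mean square difference of log2(TPM + 1) over the 8 libraries, among 17642 other genes. The closest to *Kdm3a* were *Phf1* (0.10, at 191 and 75.9 TPM), *Zfp318* (0.12, at 170 and 76.5 TPM) and *Srsf10* (0.14, at 178 and 80.6 TPM), where the pairs of values are the means of *Arid1a* WT and *Arid1a* cKO. *Phf1* encodes a Polycomb-associated protein and *Srsf10* a splicing factor. The closest to *Kdm1b* were *Kif1c* (0.09), *Mfsd6* (0.10) and *Cbx2* (0.11), at 2.65 to 2.91 TPM in *Arid1a* WT and 4.44 to 4.59 TPM in *Arid1a* cKO.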

How the data were processed

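The authors ran Salmon and, through tximport, totalled transcripts of the mm10 annotation per Entrez gene. The estimated counts they deposited carry no scaling for depth or length. The deposited TPM are scaled by Salmon over the whole library. A deposited table of the authors' own DESeq2 comparison (fold changes, standard errors and p-values) was not used. All columns of per-sample values were assigned to samples from the genotype and number they carry. Versions of Salmon and tximport were not given in the sources used here.

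Estimated counts were rounded. edgeR 4.0.16 in R 4.3.3 (TMM, glmQLFit and glmQLFTest, genotype alone) was run on genes whose counts summed to 10 or more. Calls needed a p of 0.05 or less after Benjamini-Hochberg adjustment. The standard error was the log2 fold change over the root of the F value. CPM used TMM-scaled library sizes. Relative transcript length was compared with limma 3.58.1 over genes with at least 10 counts in every library. It also moves with the fragment lengths of a library. edgeR and limma were tested on simulated data. Replicates differed by more than counting noise (chi-square per degree of freedom 1.71 to 18.0 between pairs of a genotype). The 9 genes and all lists were chosen with earlier results of these data known. Genes named beside the members and *Arid1a* were, from each list, up to 3 called genes of the largest rise and of the largest fall whose average log2 CPM reached 1, and the 3 genes closest in pattern. Not every gene that this rule takes in is reported here, and the single cell type markers were named after their values were seen. A gene of a list that the count table does not name was left out (*Hbb-bs*). The alternatives were DESeq2 1.42.0, other normalizations and filters, a block for the replicate number, transcript length offsets, limma on TPM with pseudocounts of 1 and 0.1 (a scale that understates folds of weakly expressed genes), and each library left out. Of 21058 genes, 21036 had a RefSeq record (GRCm38.p6, the build that mm10 names), which gave symbols and coordinates. Overlapping genes, transcripts and shared 31-base words came from GENCODE M21. Whether counting used strand was not given in the sources used here.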

Additional observations from a re-analysis of the deposited data

Results flagged for a closer look

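In each genotype the CPM, TPM and relative length of the 9 genes were searched for single libraries standing apart, by Dixon's ratio of gap to range at the 95% level. This held in 4 of 54 groups, and about 2.7 are due by chance. *Kdm1b* was low in *Arid1a* WT replicate 3 (0.858, at 7.63 CPM, the others reaching 8.07). *Kdm3b* was high in *Arid1a* cKO replicate 3 (0.913, at 29.2 CPM against 26.8 to 27.0). *Kdm4a* had a low relative length in *Arid1a* cKO replicate 2 (0.844, at 1.88 against 2.08 to 2.12). *Kdm4b* was high in *Arid1a* cKO replicate 2 (0.837, at 9.44 TPM against 3.61 to 4.56).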

How the results depend on the processing

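Under the 20 alternatives the log2 fold changes of all 9 genes kept their direction, and those of *Kdm1b*, *Kdm3a*, *Jmjd1c*, *Kdm4a* and *Kdm4d* kept their call in each. The number of members called lower was 4 or 5. The number called higher was 2 with limma on log2(TPM + 1) and on log2(TPM + 0.1), 1 on rescaled TPM, and 3 to 4 with a library left out. TPM rescaled to an equal sum over the listed genes, a setting chosen after seeing the data, gave a median of all genes of -0.13 and calls of 4854 higher and 7624 lower, where limma on log2(TPM + 1) without rescaling gave -0.05, 5583 and 6732, and edgeR on counts -0.02, 6435 and 6613. On the rescaled TPM *Kdm1a* was at 0.050, *Kdm3b* at 0.084 and *Kdm4b* at 0.049, none of them called, and relative to the median of all genes they were at 0.18, 0.22 and 0.18. The rise of *Kdm1b* was 0.41 there, and the falls were larger than with edgeR, at -1.44 for *Kdm3a*, -0.99 for *Jmjd1c*, -0.76 for *Kdm4a*, -0.47 for *Kdm4c* and -0.77 for *Kdm4d*. *Kdm3b* was also lost on log2(TPM + 1) (0.21) and log2(TPM + 0.1) (0.24), and *Kdm4c* with DESeq2 (-0.25). *Kdm4b* was lost without TMM (0.13), with transcript length offsets (0.34), on log2(TPM + 1) (0.17) and log2(TPM + 0.1) (0.20), and was at 0.17 to 0.31 with a library left out. The cause was not tested for any of these.

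With a library left out, the log2 difference in relative length was -0.15 to -0.10 for *Kdm1b*, 0.083 to 0.15 for *Kdm3a*, -0.037 to 0.0048 for *Kdm3b*, 0.023 to 0.10 for *Jmjd1c*, 0.10 to 0.16 for *Kdm4a* and -0.28 to 0.26 for *Kdm4b*. The sign turned for *Kdm3b* without *Arid1a* cKO replicate 2 (0.0048), and for *Kdm4b* without *Arid1a* WT replicate 1, 2 or 3 (0.016, 0.089 and 0.0011) or *Arid1a* cKO replicate 2 (0.26). *Kdm4a* was called longer when lengths were scaled over genes with at least 100 counts (0.12). As summed CPM, the log2 ratio of the KDM1, KDM3 and KDM4 sums was 0.39, -0.94 and -0.44, against 0.22, -1.16 and -0.59 as TPM. On log2(TPM + 1) 3 of the KDM1 partners were called higher, against 5, and 4 of the lysine 9 methyltransferases, against 6.

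Same-numbered libraries share only a number, with correlations of their deviations of -0.03 to 0.04 across genes, and not every library correlated best with its own number. With the replicate number as a block, 13100 genes were called against 13048, and no member's call changed. In relative length, the block ended the call of *Kdm1b* (-0.12) and gave one for *Kdm4a* (0.11).

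The counts of *Kdm4c*, *Kdm1b* and *Kdm4b*, the members lowest in average log2 CPM over all libraries, were 93 to 262 a library.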
